A study of Mus musculus with 56 samples.

Results

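Double-negative cells of day 6 are cells from reprogramming cultures of mouse embryonic fibroblasts that carried neither Thy1 nor SSEA1 on their surface when they were sorted. They are called DN cells here and are labelled D6_shLuci_SSEA1-Thy1-. They were set against both populations sorted beside them on the same day, Thy1+ cells, which still carry the fibroblast marker, and SSEA1+ cells, which already carry the embryonic one. The question was which genes of DN cells stand between those of the neighbours and which stand outside both. The 3 populations make up 6 of the 56 samples of the series, with 2 libraries each, and all 13451 gene rows of the deposited sorted-cell table were members, whatever their values.

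All 6 samples came from OG2 mouse embryonic fibroblasts, which carry a GFP reporter of Oct4. The cells took up a lentivirus that expresses Oct4, Sox2, Klf4 and Myc from 1 transcript when doxycycline is given, together with the rtTA activator it needs and a control shRNA (labelled shLuci). They were grown with doxycycline and vitamin C in the medium used for mouse embryonic stem cells. DN, Thy1+ and SSEA1+ cells of day 6 with Ctcf shRNA, the same sorts at days 3 and 9 with control shRNA, unsorted cells of day 0 and GFP+ cells of day 12, both with control shRNA, entered no difference between the 3 populations. With all other groups of the table they share the estimate of the spread behind each SE and p. Each group had 2 libraries. Virus integrates at different sites and copy numbers in each cell, so a sorted population is a mixture of many inductions, and the labels do not say whether the 2 libraries of a group came from separate cultures. The p-values therefore measure the spread between samples, which may be technical.

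The values are tag counts that the authors normalized and rounded, here called scores. Library totals ran from 31777102 to 31798964 and the median score was 500 in all 44 libraries of the table. The highest score was 933110 in each of them. The sequencing depth behind a score is therefore unknown. Folds are differences of log2(score + 1), given as log2 with a standard error (SE), and they understate the change of genes with low scores. A gene was called when its adjusted p in limma's moderated test (Benjamini-Hochberg over 13451 genes) was below 0.05. In sorted bulk RNA, fewer cells of a kind and less RNA per cell cannot be told apart. For the same reason, cells at an intermediate level and a gate that holds cells of both neighbours cannot be told apart.

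Fibroblasts that respond to the 4 factors first lose the surface glycoprotein Thy1 and the mesenchymal program of collagens, contractile proteins and growth-factor signalling. They then divide faster, take on epithelial junctions and gain SSEA1, a carbohydrate built by fucosyltransferases such as Fut9. The pluripotency network around Nanog, Sall4 and Esrrb and the endogenous Oct4 locus come on late and only in few cells. Cells that have lost the first marker without gaining the second fall in the double-negative gate.

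DN cells had the factors of SSEA1+ cells and little of the Thy1 of Thy1+ cells. Thy1 scores were 208 and 208 in DN cells, against 5888 and 5800 in Thy1+ cells and 81 and 119 in SSEA1+ cells. DN cells thus lay far below Thy1+ cells (log2 -4.81, SE 0.18, limma adjusted p = 1.19e-17) and somewhat above SSEA1+ cells (log2 1.08, SE 0.18, adjusted p = 1.63e-05). The cells were sorted on Thy1, so its difference from Thy1+ cells is a check of the gate. Fut9 stood at 3146 and 4120 in DN cells, against 465 and 514 in Thy1+ cells and 5234 and 6160 in SSEA1+ cells. It was called higher in DN than in Thy1+ cells (log2 2.88, SE 0.58) but not called against SSEA1+ cells (log2 -0.66, SE 0.58, adjusted p = 0.39, or 0.0283 with the 6 libraries fitted alone). Fut4, the other fucosyltransferase of this antigen, is not analysed here.

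The 4 factors had nearly SSEA1+ levels. Pou5f1, the gene of Oct4, stood at 9164 and 9819 in DN cells, against 2554 and 2304 in Thy1+ cells and 10477 and 9418 in SSEA1+ cells. Sox2, Klf4 and Myc showed the same order of levels against Thy1+ cells, and all 4 were called higher in DN cells, by log2 1.70 to 2.08. Against SSEA1+ cells none of the 4 was called. The 95% interval of the DN minus SSEA1+ difference ran from -0.47 to 0.33 for Pou5f1, from -0.18 to 0.56 for Sox2, from -0.35 to 0.24 for Klf4 and from -0.24 to 0.32 for Myc. Sox2, at 10823 and 10678 in DN cells and 9227 and 9562 in SSEA1+ cells, was called when the 6 libraries were fitted alone (log2 0.19, adjusted p = 0.0302). Scores of these genes include reads of the viral transcript. Ctcf, the insulator protein that the wider study manipulates, stood between, at 1466 and 1483 in DN cells, against 816 and 851 in Thy1+ cells and 1994 and 1925 in SSEA1+ cells.

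Across all genes, DN cells differed more from Thy1+ than from SSEA1+ cells. Of 13451 genes, 4711 (35.0%) were called higher and 3938 (29.3%) lower in DN than in Thy1+ cells. Against SSEA1+ cells 2909 (21.6%) were called higher and 2666 (19.8%) lower. In either direction the calls came to 8649 genes (64.3%) against Thy1+ cells and 5575 (41.4%) against SSEA1+ cells. The count lower than in SSEA1+ cells was 1701 without replicate 1 of the DN libraries and 1777 without SSEA1+ replicate 2. The median difference over all genes was 0.07 against Thy1+ cells and -0.04 against SSEA1+ cells, both on the log2 scale. Both comparisons share the DN libraries, so the only joint counts given are the classes they define.

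Called in both comparisons were 4567 genes (34.0%), nearly all of them between the neighbours. DN cells were above Thy1+ and below SSEA1+ cells for 1963 genes (14.6%, called between rising), and below Thy1+ and above SSEA1+ cells for 2381 (17.7%, between falling). DN cells were above both neighbours for 95 genes (0.706%, DN-high) and below both for 128 (0.952%, DN-low). With at least a 2-fold step on each side these counts were 215 (1.60%), 1002 (7.45%), 7 (0.0520%) and 20 (0.149%). Without replicate 1 of the DN libraries they were 1179 between rising, 58 DN-high and 70 DN-low. Without replicate 2 they were 1273, 59 and 101, and without SSEA1+ replicate 2 the between rising count was 1304. Quantile normalization gave 83 DN-high and 177 DN-low genes. Median-of-ratios scaling gave 1454 between rising, 2641 between falling, 108 DN-high and 122 DN-low genes, with 2065 genes called lower in DN than in SSEA1+ cells. The size of the rising class thus depended on the scaling. The 6 libraries fitted alone gave 130 DN-high genes, of which 72 were among the 95.

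**Figure D1:**
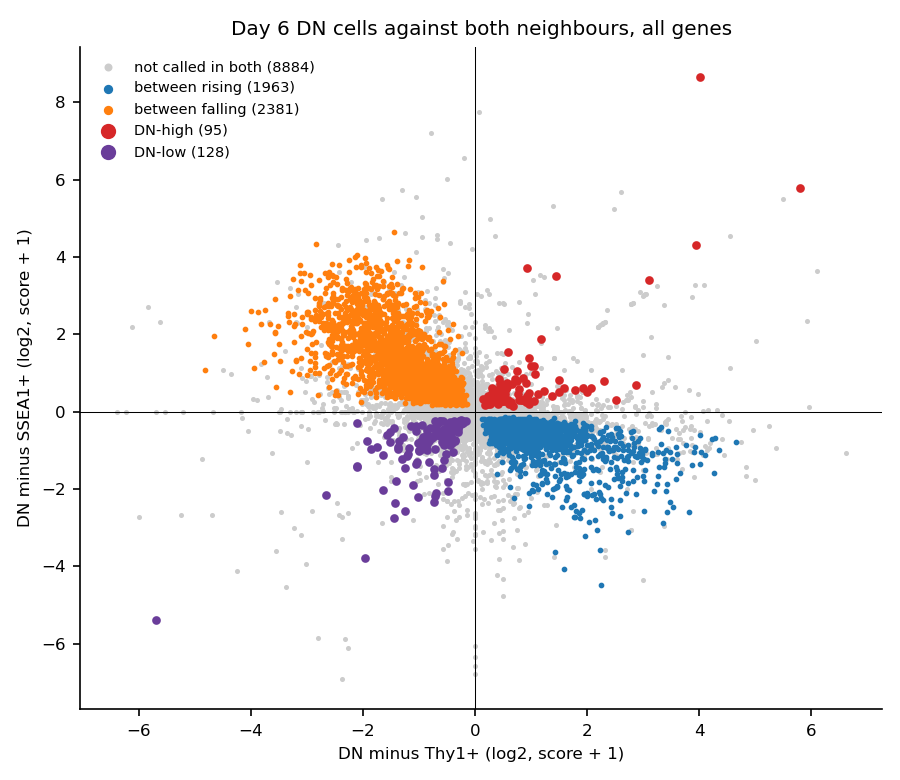
Each point is 1 of 13451 genes; the x axis is the log2 difference of DN and Thy1+ cells and the y axis that of DN and SSEA1+ cells, on log2(score + 1), day 6, control shRNA. The between classes fill the upper left (2381 genes) and lower right (1963 genes), and few genes called in both lie at the upper right (95 DN-high) or lower left (128 DN-low).

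In the plot of both comparisons the genes between spread along a falling diagonal. The step from Thy1+ cells was the larger one for most rising genes: DN cells were nearer to SSEA1+ cells in log2 for 1623 of the 1963, and nearer to Thy1+ cells for 339. The falling genes split more evenly, with 1373 nearer to SSEA1+ and 1008 nearer to Thy1+ cells. Against the log2 midpoint of both neighbours, 2025 genes (15.1%) were called above and 992 (7.37%) below in DN cells. These counts were 1052 and 450 without replicate 1 of the DN libraries, and 1144 and 535 without replicate 2.

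Pluripotency genes were present in DN cells at a fraction of their SSEA1+ level. Of 15 genes known to come on early in this process, 14 were called higher in DN than in Thy1+ cells (35.0% of all genes) and 13 lower than in SSEA1+ cells (19.8%), with median log2 differences of 1.00 and -1.17, where all genes gave 0.07 and -0.04. Of 19 genes known to come on late, 10 were called higher and 2 lower than in Thy1+ cells (35.0% and 29.3%), and 10 lower and 2 higher than in SSEA1+ cells (19.8% and 21.6%). Of the rising genes that met the naming rule, the one with the largest smaller step was Nanog, the homeodomain factor at the centre of the pluripotency network. It stood at 216 and 214 in DN cells, against 20 and 20 in Thy1+ cells and 1688 and 1525 in SSEA1+ cells. The populations did not overlap, and the steps were log2 3.36 from Thy1+ cells (SE 0.44, limma adjusted p = 2.63e-07) and -2.89 from SSEA1+ cells (SE 0.44, adjusted p = 6.35e-06).

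The Nanog promoter is printed because all 4 factors were near their SSEA1+ level in DN cells while Nanog was not, and it carries a known composite of an octamer, the motif of Oct4, and a Sox motif. The window is from RefSeq, build GRCm38.p6, chr6:122707315-122707614, plus strand, from 250 bases before to 50 after the start site, with the composite of TTTGCAT, 1 base of any kind and ACAATG, with both parts in capitals.
Nanog promoter: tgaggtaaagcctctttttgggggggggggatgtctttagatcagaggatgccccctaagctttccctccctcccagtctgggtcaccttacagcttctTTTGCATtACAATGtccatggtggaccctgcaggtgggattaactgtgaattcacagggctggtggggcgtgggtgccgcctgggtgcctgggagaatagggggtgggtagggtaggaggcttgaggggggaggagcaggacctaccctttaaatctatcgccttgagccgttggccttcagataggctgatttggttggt
RefSeq lists a second Nanog start site further upstream, and the window of the downstream one is shown. The match starts 151 bases before this start site, at chr6:122707414-122707427. These letters were searched on both strands because this promoter is known for them. They occur in 2 of 32851 RefSeq windows of this length (0.00609%), both of Nanog. A match is a description of the sequence and shows no binding in these cells.

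Other members of the network differed in where they stood between the neighbours. Nr5a2, a nuclear receptor that can stand in for Oct4 in reprogramming, stood at 101 and 117 in DN cells, against 11 and 4 in Thy1+ cells and 636 and 681 in SSEA1+ cells. Sall4, a zinc-finger factor of embryonic stem cells, stood at 182 and 193 in DN cells, against 18 and 12 in Thy1+ cells and 664 and 602 in SSEA1+ cells. Utf1, a chromatin protein of pluripotent cells, stood at 48 and 58 in DN cells, against 4 and 4 in Thy1+ cells and 342 and 304 in SSEA1+ cells. All 3 lay between their neighbours without overlap and were called in both comparisons.

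Nr0b1, the nuclear receptor Dax1, was an exception at the SSEA1+ end, with 294 and 289 in DN cells, against 17 and 22 in Thy1+ cells and 322 and 326 in SSEA1+ cells. It was not called against SSEA1+ cells (log2 -0.15, SE 0.39, adjusted p = 0.79). L1td1, an RNA-binding protein of stem cells, had the highest scores of the named members, 4076 and 4244 in DN cells, against 1504 and 1418 in Thy1+ cells and 6439 and 6558 in SSEA1+ cells. The 2 late-list members that went the other way were Klf2 and Tbx3, both also used outside pluripotent cells. Klf2, a factor of vessel and immune cells too, stood at 379 and 304 in DN cells, against 1218 and 1222 in Thy1+ cells and 196 and 198 in SSEA1+ cells. Tbx3, a T-box factor of limb and other mesenchyme, stood at 85 and 95 in DN cells, against 210 and 200 in Thy1+ cells and 53 and 48 in SSEA1+ cells.

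Epithelial genes were low in DN cells and marked the step to SSEA1+ cells. Of 27, 25 were called lower in DN than in SSEA1+ cells (19.8% of all genes) and none higher, with a median of log2 -1.89. Against Thy1+ cells 16 were called higher (35.0%) and 3 lower (29.3%), with a median of 0.97. Epcam, an epithelial adhesion molecule, stood at 644 and 644 in DN cells, against 120 and 119 in Thy1+ cells and 3454 and 3683 in SSEA1+ cells. Its steps were nearly even in log2, 2.42 from Thy1+ cells (SE 0.20, limma adjusted p = 3.48e-11) and -2.47 from SSEA1+ cells (SE 0.20, adjusted p = 4.56e-11).

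The Epcam promoter is shown because E-boxes of the letters CAGGTG are the motif that the mesenchymal repressors Snai2 and Zeb1 are known to bind, and both of these were ordered opposite to Epcam across the 3 populations. The window is RefSeq, GRCm38.p6, chr17:87635729-87636028, plus strand, with the matches in capitals.
Epcam promoter: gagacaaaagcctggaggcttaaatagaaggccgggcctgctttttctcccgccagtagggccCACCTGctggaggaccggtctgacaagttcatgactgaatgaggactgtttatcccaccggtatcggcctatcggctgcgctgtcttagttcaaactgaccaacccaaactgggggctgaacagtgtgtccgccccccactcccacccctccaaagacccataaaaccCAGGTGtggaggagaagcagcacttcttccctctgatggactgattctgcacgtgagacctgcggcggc
The match at chr17:87635792-87635797 reads CAGGTG on the minus strand and starts 187 bases before the start site. The one at chr17:87635960-87635965 is on the plus strand, 19 bases before it. On either strand these letters occur in 20.2% of all windows and in 20.5% of the windows of the genes tested. They occur in 23.8% of between rising, 18.5% of between falling, 24.7% of DN-high and 27.8% of DN-low genes with a window, given as a description. A match shows no binding in these cells, and an effect of Snai2 or Zeb1 on Epcam was not tested.

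Several epithelial regulators lay between in the same way. Esrp1, which directs epithelial splicing, stood at 310 and 359 in DN cells, against 81 and 90 in Thy1+ cells and 1431 and 1468 in SSEA1+ cells. Grhl2, a transcription factor that keeps junction genes on, stood at 76 and 81 in DN cells, against 16 and 18 in Thy1+ cells and 570 and 530 in SSEA1+ cells. Cdh1, the gene of E-cadherin, stood at 1076 and 1094 in DN cells, against 576 and 534 in Thy1+ cells and 4772 and 4563 in SSEA1+ cells. Some members showed no step from Thy1+ to DN cells that was called. Cldn4, a tight-junction claudin, stood at 156 and 131 in DN cells, against 138 and 124 in Thy1+ cells and 735 and 765 in SSEA1+ cells (log2 0.13 from Thy1+ cells, SE 0.11, adjusted p = 0.314). Krt17, a keratin, stood at 21 and 22 in DN cells, against 24 and 31 in Thy1+ cells and 222 and 216 in SSEA1+ cells.

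The remaining genes named by the size of their smaller step were Lad1, Camsap3 and Trh. Lad1, a filament-associated protein of basement membrane zones, stood at 111 and 118 in DN cells, against 24 and 14 in Thy1+ cells and 734 and 766 in SSEA1+ cells. Camsap3, which holds microtubule minus ends in epithelia, stood at 166 and 164 in DN cells, against 36 and 32 in Thy1+ cells and 750 and 802 in SSEA1+ cells. Trh, the precursor of thyrotropin-releasing hormone, stood at 362 and 342 in DN cells, against 31 and 42 in Thy1+ cells and 1208 and 1357 in SSEA1+ cells. In none of these 3 did libraries of different populations overlap.

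In the median, cell division genes of DN cells lay nearer to SSEA1+ than to Thy1+ cells in log2. Of 22 replication genes, 21 were called higher in DN than in Thy1+ cells (35.0% of all genes, median log2 1.40) and 19 lower than in SSEA1+ cells (19.8%, median -0.36). Of 20 mitosis genes, 20 were called higher and 18 lower (medians 1.01 and -0.50). Mybl2, a factor of cycling cells, stood at 1653 and 1643 in DN cells, against 257 and 292 in Thy1+ cells and 2283 and 2406 in SSEA1+ cells, a step of log2 2.58 from Thy1+ cells (SE 0.07, limma adjusted p = 7.4e-20) and -0.51 from SSEA1+ cells (SE 0.07, adjusted p = 1.17e-06). Mcm5, a subunit of the replicative helicase, stood at 2556 and 2417 in DN cells, against 790 and 730 in Thy1+ cells and 3445 and 3366 in SSEA1+ cells.

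Pcna, the sliding clamp of DNA polymerase, was not called against SSEA1+ cells. It stood at 17072 and 16384 in DN cells, against 6590 and 5770 in Thy1+ cells and 19396 and 20576 in SSEA1+ cells. Among mitosis genes, Bub1b of the spindle checkpoint stood at 3388 and 3380 in DN cells, against 1053 and 1067 in Thy1+ cells and 5014 and 4866 in SSEA1+ cells. Ttk, a kinase of the same checkpoint, lay nearer to Thy1+ cells, at 928 and 846 in DN cells, against 513 and 562 in Thy1+ cells and 1568 and 1510 in SSEA1+ cells. Of 14 genes of CTCF, cohesin and the ISWI remodellers, 11 were called higher in DN than in Thy1+ cells (35.0% of all genes) and 5 lower than in SSEA1+ cells (19.8%). Ctcf was 1 of the 5, with steps of log2 0.82 and -0.41 (SE 0.09 each).

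Of 20 genes of cell-cycle inhibitors and the p53 response, 5 were called higher and 8 lower in DN than in Thy1+ cells (35.0% and 29.3% of all genes), and 8 higher and 2 lower than in SSEA1+ cells (21.6% and 19.8%). Cdkn2b, the inhibitor p15, stood at 434 and 391 in DN cells, against 1202 and 1194 in Thy1+ cells and 134 and 111 in SSEA1+ cells.

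Matrix, contractile and mesenchymal genes were low in DN cells, yet far above SSEA1+ cells. All 24 fibroblast matrix genes were called lower in DN than in Thy1+ cells (29.3% of all genes, median log2 -2.59), and 23 were called higher than in SSEA1+ cells (21.6%, median 2.61). All 12 smooth muscle genes were called lower than in Thy1+ and higher than in SSEA1+ cells (medians -2.43 and 1.76). Of 16 mesenchymal regulators, 16 were called lower than in Thy1+ cells and 15 higher than in SSEA1+ cells (medians -1.82 and 2.24). Col3a1, the gene of the type III collagen chain, stood at 2929 and 2822 in DN cells, against 25035 and 24910 in Thy1+ cells and 204 and 276 in SSEA1+ cells. The steps were log2 -3.12 from Thy1+ cells (SE 0.13, limma adjusted p = 5.68e-17) and 3.59 from SSEA1+ cells (SE 0.13, adjusted p = 1.89e-18), with no overlap.

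The Col3a1 promoter is printed as the counterpart of Nanog among the falling genes, because it too holds the letters of an octamer. The window is RefSeq, GRCm38.p6, chr1:45311288-45311587, plus strand. Capitals mark the octamer ATGCAAAT, 148 bases before the start site, and the TATA motif TATAAA, 117 bases before it.
Col3a1 promoter: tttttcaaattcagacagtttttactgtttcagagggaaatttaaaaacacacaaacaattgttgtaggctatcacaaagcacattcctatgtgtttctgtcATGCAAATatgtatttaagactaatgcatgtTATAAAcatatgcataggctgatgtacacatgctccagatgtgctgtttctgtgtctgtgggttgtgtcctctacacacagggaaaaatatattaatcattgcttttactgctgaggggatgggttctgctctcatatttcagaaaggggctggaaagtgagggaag
Searched on both strands, the octamer letters occur in 1.74% and the TATA letters in 13.6% of all windows. Of tested genes with a window, 1.72% have the octamer letters and 9.11% the TATA letters. The octamer letters occur in 1.71% of between rising and 1.96% of between falling genes with a window, and the TATA letters in 7.81% and 11.7%. The Sox part of the composite, ACAATG, occurs in 9.78% and 8.46% of the same sets, near its 9.09% of tested genes (12.6% of all windows).

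The other falling genes named by their smaller step were secreted, matrix or surface proteins. Col1a1, the main fibrillar collagen, stood at 7669 and 7208 in DN cells, against 60237 and 52754 in Thy1+ cells and 788 and 753 in SSEA1+ cells. Col6a3, a microfibrillar collagen, stood at 2347 and 2564 in DN cells, against 20644 and 19934 in Thy1+ cells and 188 and 220 in SSEA1+ cells. Ptn, the secreted growth factor pleiotrophin, stood at 478 and 588 in DN cells, against 4402 and 5152 in Thy1+ cells and 50 and 70 in SSEA1+ cells. In all 3, DN cells stood about as far in log2 from the one neighbour as from the other.

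Receptors and transporters followed. Calcrl, a receptor of adrenomedullin and calcitonin gene-related peptide, stood at 784 and 910 in DN cells, against 6804 and 7092 in Thy1+ cells and 112 and 81 in SSEA1+ cells. S1pr3, a sphingosine-1-phosphate receptor, stood at 198 and 194 in DN cells, against 1946 and 1959 in Thy1+ cells and 26 and 22 in SSEA1+ cells. In both receptors the populations stood apart. Slc14a1, a urea transporter, stood at 191 and 207 in DN cells, against 1743 and 1760 in Thy1+ cells and 10 and 18 in SSEA1+ cells. Tspan11, a tetraspanin, stood at 64 and 77 in DN cells, against 542 and 577 in Thy1+ cells and 7 and 8 in SSEA1+ cells. Neither of these overlapped between populations.

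**Figure D2:**
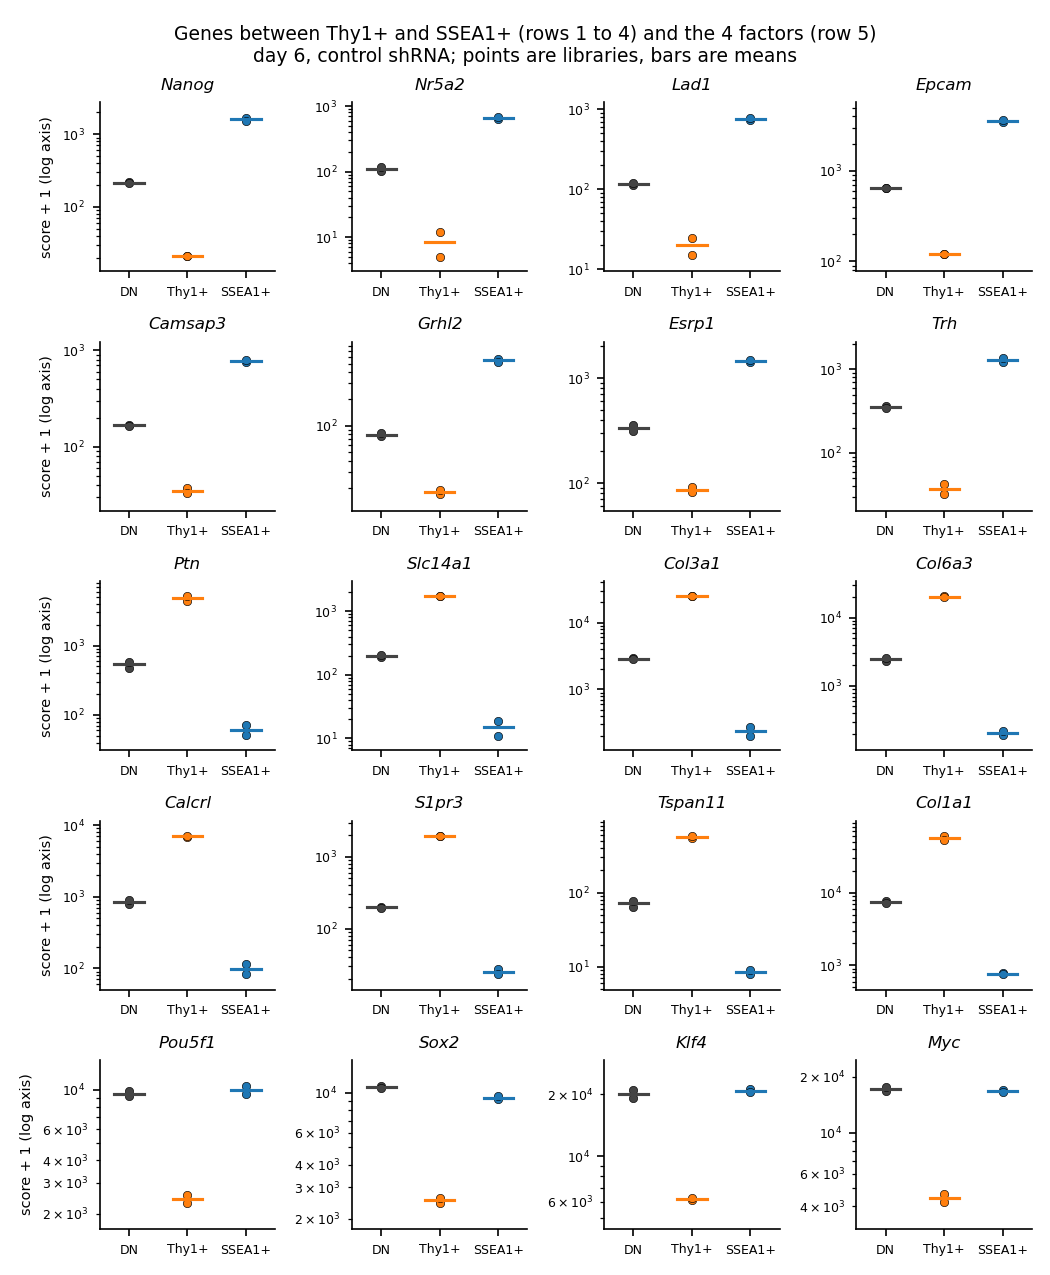
Scores + 1 on a log axis in DN, Thy1+ and SSEA1+ cells of day 6, control shRNA, points for libraries and bars for means: 8 between rising genes, 8 between falling genes and, in row 5, the 4 factors. DN cells sit in the middle for the 16 genes between (Nanog at 216 and 214), while in the factor row they sit with SSEA1+ cells (Pou5f1 at 9164 and 9819).

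Mesenchymal and matrix genes were not alike in what was left of them. Vim, the intermediate filament of mesenchyme, kept the most of those named here, at 32306 and 29050 in DN cells, against 89595 and 83689 in Thy1+ cells and 4608 and 4488 in SSEA1+ cells. Fn1, the gene of fibronectin, stood at 17611 and 19593 in DN cells, against 117041 and 110128 in Thy1+ cells and 2856 and 2784 in SSEA1+ cells. Thbs1, a thrombospondin, stood at 13298 and 13941 in DN cells, against 55410 and 53736 in Thy1+ cells and 2436 and 2374 in SSEA1+ cells. Dcn, the proteoglycan decorin, was the 1 matrix gene not called against SSEA1+ cells, with overlapping scores of 442 and 374 in DN cells, against 2566 and 2806 in Thy1+ cells and 364 and 440 in SSEA1+ cells.

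Among the regulators, Snai2, a repressor of epithelial genes, stood at 326 and 384 in DN cells, against 1800 and 1898 in Thy1+ cells and 66 and 62 in SSEA1+ cells. Zeb1, a repressor of the same kind, stood at 505 and 515 in DN cells, against 1710 and 1688 in Thy1+ cells and 117 and 127 in SSEA1+ cells. Twist2, a mesenchymal basic helix-loop-helix factor, stood at 152 and 171 in DN cells, against 670 and 783 in Thy1+ cells and 32 and 32 in SSEA1+ cells. All 3 were called between falling. Acta2, the actin of smooth muscle and myofibroblasts, stood at 3756 and 3492 in DN cells, against 22044 and 20957 in Thy1+ cells and 500 and 588 in SSEA1+ cells.

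Signalling and secretory genes of fibroblasts moved the same way. Of 17 genes of the TGF-beta pathway, 16 were called lower in DN than in Thy1+ cells (29.3% of all genes) and 14 higher than in SSEA1+ cells (21.6%). Of 21 chemokine and secretory genes 18 were lower and 15 higher, and of 18 lysosome genes 16 were lower and 15 higher. None of these lists had a member called the other way. Tgfb1, the ligand, stood at 82 and 94 in DN cells, against 488 and 532 in Thy1+ cells and 13 and 26 in SSEA1+ cells. Mmp3, a secreted matrix protease, had the deepest step from Thy1+ cells among the secretory genes named here, at 54 and 35 in DN cells, against 1218 and 1020 in Thy1+ cells and 6 and 18 in SSEA1+ cells. The lysosomal protease gene Ctsd stood at 13130 and 12231 in DN cells, against 17672 and 16260 in Thy1+ cells and 7468 and 6779 in SSEA1+ cells.

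Of 24 AP-1 and immediate-early genes, 23 were called lower in DN than in Thy1+ cells (29.3% of all genes), 18 higher than in SSEA1+ cells (21.6%) and 1 lower (19.8%). Fos, an AP-1 subunit, stood at 2242 and 2280 in DN cells, against 5256 and 5160 in Thy1+ cells and 1190 and 1216 in SSEA1+ cells. The member below both neighbours was Egr1, a growth-factor-induced zinc-finger factor, at 2158 and 2208 in DN cells, against 3576 and 3632 in Thy1+ cells and 2898 and 3030 in SSEA1+ cells. Its steps were log2 -0.72 and -0.44 (SE 0.11 each, limma adjusted p = 3e-06 and 0.00232).

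Of 20 surface markers used to sort reprogramming intermediates, 12 were called lower and 4 higher in DN than in Thy1+ cells (29.3% and 35.0% of all genes), and 11 higher and 2 lower than in SSEA1+ cells (21.6% and 19.8%). Cd44, the hyaluronan receptor, stood at 6496 and 6126 in DN cells, against 16348 and 14907 in Thy1+ cells and 3114 and 2585 in SSEA1+ cells. Icam1, an adhesion molecule used together with Cd44 to stage reprogramming, stood at 70 and 70 in DN cells, against 158 and 177 in Thy1+ cells and 31 and 47 in SSEA1+ cells. Cd34, a sialomucin of fibroblast and vessel progenitors, stood at 2048 and 1712 in DN cells, against 6036 and 5651 in Thy1+ cells and 196 and 196 in SSEA1+ cells.

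Where DN cells stood depended on the program and on the scale. For the 5229 genes called and at least 2-fold different between SSEA1+ and Thy1+ cells, a position of DN cells was taken on linear scores. It is the DN minus Thy1+ difference as a share of the SSEA1+ minus Thy1+ difference. The Thy1+ level is thus at 0 and the SSEA1+ level at 100%. The median was 55.3% over the 2582 genes higher in SSEA1+ cells and 74.6% over the 2647 lower ones. The median was 99.3% for the 4 factors, 86.3% for matrix, 85.6% for smooth muscle, 82.8% for chemokine and secretory genes and 78% for the TGF-beta pathway. It was 77.7% for mesenchymal regulators, 74% for AP-1, 72.8% for the lysosome, 65.5% for replication and 53.5% for mitosis. The lowest medians were 24.5% and 22.1% for early and late pluripotency genes and 16.2% for epithelial genes.

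The order of these programs depended on the scale. On linear scores, a gene near the log2 middle of a wide range lies close to 0 if it rises and close to 100% if it falls. Epcam, for example, stood at 49.5% on log2 and 15.2% on linear scores, and Col3a1 at 46.5% and 89.3%. The linear gap between falling and rising programs therefore partly reflects direction and range. On log2 scores the median was 48.7% for matrix, 55.9% for smooth muscle, 79.3% for replication, 67.3% for mitosis, 49.5% for early pluripotency and 40.7% for epithelial genes. Of the programs named here, the factors, at 99.5%, led on both scales and the epithelial list came last on both. With each DN library taken alone, the linear median was 86.5% and 86.2% for matrix, 64% and 65% for replication, and 14.7% and 16.6% for epithelial genes. Lists with close medians were not ordered by this measure: early and late pluripotency genes gave 22.7% and 23.6% in DN replicate 1, and 20.1% and 19.8% in DN replicate 2. Within the epithelial list the positions of single genes ran from -8.85% to 132%.

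**Figure D3:**
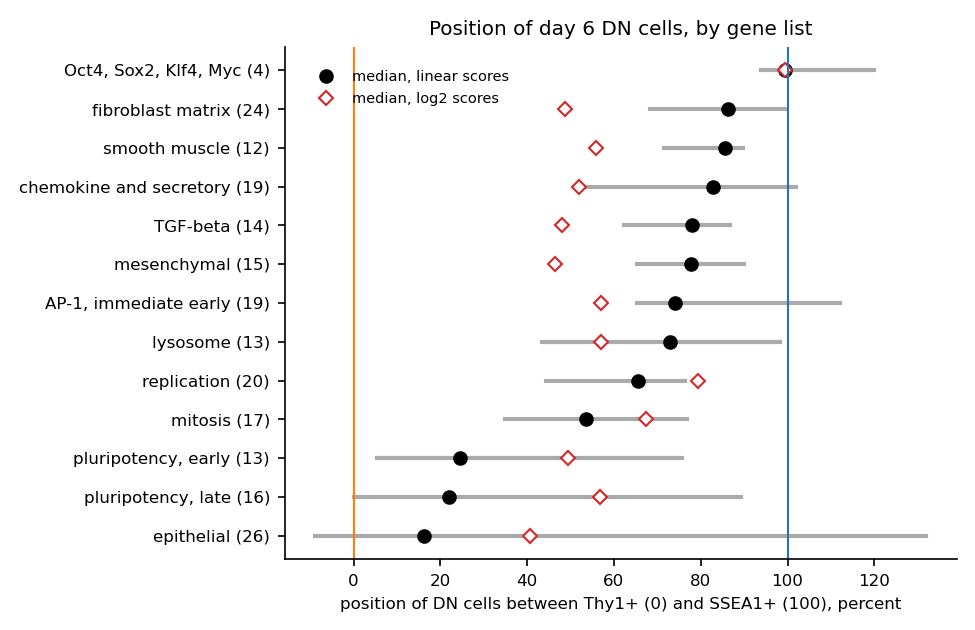
Position of DN cells between Thy1+ (0, orange line) and SSEA1+ cells (100, blue line) in percent, by gene list, with the number of genes that had a position in brackets; filled circles are medians on linear scores, grey bars the lowest to highest gene on linear scores, and open diamonds medians on log2 scores. The factors sit at 99.3% and epithelial genes at 16.2% on linear scores, and matrix genes shift to 48.7% on log2 scores.

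DN-high genes were few and stood above their neighbours by small steps. Over the 95 genes the median step was log2 0.57 above Thy1+ and 0.48 above SSEA1+ cells. Itga4, the alpha-4 integrin chain of fibronectin and VCAM1 receptors, stood at 1518 and 1498 in DN cells, against 932 and 874 in Thy1+ cells and 844 and 886 in SSEA1+ cells. The neighbours overlapped each other and DN cells stood above both, by log2 0.74 (SE 0.16, limma adjusted p = 0.000251) and 0.80 (SE 0.16, adjusted p = 0.000213). Limch1, an activator of non-muscle myosin, stood at 1156 and 1132 in DN cells, against 826 and 816 in Thy1+ cells and 712 and 678 in SSEA1+ cells, with steps of 0.48 and 0.72 (SE 0.07 each). Ggh, a folate hydrolase, had the highest scores of the 12 named genes, at 5698 and 5022 in DN cells, against 4018 and 3216 in Thy1+ cells and 3236 and 3229 in SSEA1+ cells.

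Some DN-high genes were nearer to SSEA1+ than to Thy1+ levels. Foxd1, a forkhead factor of stromal progenitors, stood at 558 and 577 in DN cells, against 62 and 94 in Thy1+ cells and 306 and 398 in SSEA1+ cells. Pygl, a glycogen phosphorylase, stood at 574 and 629 in DN cells, against 124 and 164 in Thy1+ cells and 380 and 415 in SSEA1+ cells. She, an SH2-domain adaptor, stood at 512 and 492 in DN cells, against 169 and 164 in Thy1+ cells and 359 and 304 in SSEA1+ cells. In all 3, DN cells were highest and Thy1+ cells lowest. Eif4e3, a member of the cap-binding eIF4E family, stood at 518 and 513 in DN cells, against 243 and 230 in Thy1+ cells and 354 and 394 in SSEA1+ cells. The call against SSEA1+ cells in these 4 was lost in several fits. It ended for Foxd1 without SSEA1+ replicate 1 (limma adjusted p = 0.108) or with the 6 libraries alone (adjusted p = 0.0722), and for Pygl without any 1 of the 4 DN and SSEA1+ libraries (adjusted p = 0.0775 to 0.16). For She it ended without either DN library or SSEA1+ replicate 2 (adjusted p = 0.0576 to 0.148), with quantile normalization (adjusted p = 0.174) and with control shRNA libraries only (adjusted p = 0.0719). For Eif4e3 it ended without either DN library or SSEA1+ replicate 1 (adjusted p = 0.0704 to 0.135).

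The other named members were less far from Thy1+ cells. Rap1gap2, which turns off the GTPase Rap1, stood at 1164 and 1176 in DN cells, against 670 and 712 in Thy1+ cells and 864 and 828 in SSEA1+ cells. Armcx1, a mitochondrial transport protein, stood at 1458 and 1506 in DN cells, against 1055 and 1020 in Thy1+ cells and 894 and 944 in SSEA1+ cells. Nrbp2, a pseudokinase, stood at 558 and 537 in DN cells, against 368 and 329 in Thy1+ cells and 318 and 348 in SSEA1+ cells. DN libraries were above all neighbours in these and in Fam174b, with 861 and 742 in DN cells, against 472 and 456 in Thy1+ cells and 553 and 516 in SSEA1+ cells. Gna14, an alpha subunit of Gq proteins, stood at 500 and 515 in DN cells, against 314 and 300 in Thy1+ cells and 276 and 292 in SSEA1+ cells. Both of its calls ended without any 1 of the libraries they compare (limma adjusted p = 0.0752 to 0.118), and that against Thy1+ cells also with median-of-ratios scaling (adjusted p = 0.067) or control shRNA libraries only (adjusted p = 0.0541).

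Of 20 glycolysis genes, 3 were DN-high (0.706% of all genes). In the list 9 were called higher and 2 lower in DN than in Thy1+ cells (35.0% and 29.3% of all genes), and 8 higher and 2 lower than in SSEA1+ cells (21.6% and 19.8%). Pfkp, a phosphofructokinase, stood at 3116 and 3210 in DN cells, against 1591 and 1454 in Thy1+ cells and 2574 and 2658 in SSEA1+ cells (log2 1.06 and 0.27, SE 0.07 each). Gpi1, the glucose-6-phosphate isomerase, stood at 8058 and 7952 in DN cells, against 6690 and 6844 in Thy1+ cells and 6202 and 6132 in SSEA1+ cells. Its call against Thy1+ cells ended with median-of-ratios scaling (limma adjusted p = 0.0733). Eno1, an enolase with close pseudogene copies, stood at 18413 and 17538 in DN cells, against 15740 and 15007 in Thy1+ cells and 16384 and 14938 in SSEA1+ cells. Its call against Thy1+ cells ended without DN replicate 1 or Thy1+ replicate 2, and that against SSEA1+ cells without either DN library or SSEA1+ replicate 2 (adjusted p = 0.0587 to 0.295). They also ended with median-of-ratios scaling against Thy1+ cells (adjusted p = 0.127), and against SSEA1+ cells with quantile normalization and with the 6 libraries fitted alone (adjusted p = 0.0733 and 0.0783). With median-of-ratios scaling, Pfkp alone of the 3 was thus called in both comparisons.

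The glucose step enzymes and transporters split. Hk2, a hexokinase, and Pdk1, which keeps pyruvate out of mitochondria, stood with SSEA1+ cells. Hk2 had 3014 and 2949 in DN cells, against 1399 and 1256 in Thy1+ cells and 2919 and 2779 in SSEA1+ cells. Pdk1 had 2682 and 2703 in DN cells, against 856 and 790 in Thy1+ cells and 2784 and 2690 in SSEA1+ cells. The glucose transporter gene Slc2a3 was far from the SSEA1+ level, at 1276 and 1340 in DN cells, against 678 and 606 in Thy1+ cells and 5413 and 5532 in SSEA1+ cells.

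DN-low genes stood below their neighbours by a median of log2 0.70 against Thy1+ and 0.66 against SSEA1+ cells over 128 genes. Notch3, a receptor of mural and mesenchymal cells, stood at 394 and 444 in DN cells, against 1101 and 1061 in Thy1+ cells and 820 and 752 in SSEA1+ cells. The differences were log2 -1.37 (SE 0.20, limma adjusted p = 9.3e-07) and -0.91 (SE 0.20, adjusted p = 0.000474). Chst11, a chondroitin sulfotransferase, stood at 297 and 324 in DN cells, against 790 and 796 in Thy1+ cells and 534 and 512 in SSEA1+ cells. Mcam, the adhesion molecule CD146, stood at 723 and 646 in DN cells, against 1024 and 961 in Thy1+ cells and 1162 and 1116 in SSEA1+ cells. Lama5, a laminin chain of basement membranes, stood at 1946 and 2066 in DN cells, against 2847 and 2904 in Thy1+ cells and 4492 and 4081 in SSEA1+ cells. Its call against Thy1+ cells ended without DN replicate 1 (adjusted p = 0.0574).

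Elf1, an ETS factor, stood at 1670 and 1751 in DN cells, against 2766 and 2966 in Thy1+ cells and 2504 and 2756 in SSEA1+ cells. Cacna1c, the pore of an L-type calcium channel, stood at 448 and 474 in DN cells, against 818 and 758 in Thy1+ cells and 767 and 691 in SSEA1+ cells. Both neighbours overlapped each other in Cacna1c, as they did in Sh3d19 and Cdk18, and DN cells stood below them. Sh3d19, an SH3-domain protein, stood at 428 and 458 in DN cells, against 718 and 795 in Thy1+ cells and 670 and 754 in SSEA1+ cells. Cdk18, a PCTAIRE kinase, stood at 488 and 456 in DN cells, against 659 and 745 in Thy1+ cells and 657 and 703 in SSEA1+ cells.

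Other DN-low genes were highest in SSEA1+ cells and had their lowest point in DN cells. Aqp3, a water and glycerol channel of epithelia, stood at 220 and 204 in DN cells, against 315 and 310 in Thy1+ cells and 523 and 480 in SSEA1+ cells. Mal, a membrane-raft proteolipid, stood at 256 and 216 in DN cells, against 371 and 340 in Thy1+ cells and 636 and 665 in SSEA1+ cells. Apoe, the lipid carrier, stood at 180 and 207 in DN cells, against 286 and 255 in Thy1+ cells and 624 and 742 in SSEA1+ cells. In these 3 the DN libraries lay below those of both neighbours. Pof1b, an actin-binding protein of epithelia, stood at 22 and 62 in DN cells, against 173 and 126 in Thy1+ cells and 619 and 435 in SSEA1+ cells. The calls against Thy1+ cells were the less firm ones. They ended for Mal without DN replicate 2 or Thy1+ replicate 1 (limma adjusted p = 0.0799 and 0.0519) or with quantile normalization (adjusted p = 0.0624), and for Apoe without DN replicate 1 or Thy1+ replicate 1 (adjusted p = 0.0843 and 0.0722). For Pof1b they ended without DN replicate 1 (log2 -1.24 in place of -1.97, adjusted p = 0.316) or either Thy1+ library (adjusted p = 0.0785 and 0.163), and likewise with control shRNA libraries only or no trend (adjusted p = 0.117 and 0.0542).

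Sfn and Krt7, from the epidermal and epithelial lists, were DN-low too. Sfn, the 14-3-3 sigma protein of epithelia, stood at 106 and 107 in DN cells, against 178 and 170 in Thy1+ cells and 456 and 462 in SSEA1+ cells. Krt7, a simple-epithelial keratin, stood at 20 and 16 in DN cells, against 64 and 78 in Thy1+ cells and 30 and 32 in SSEA1+ cells.

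**Figure D4:**
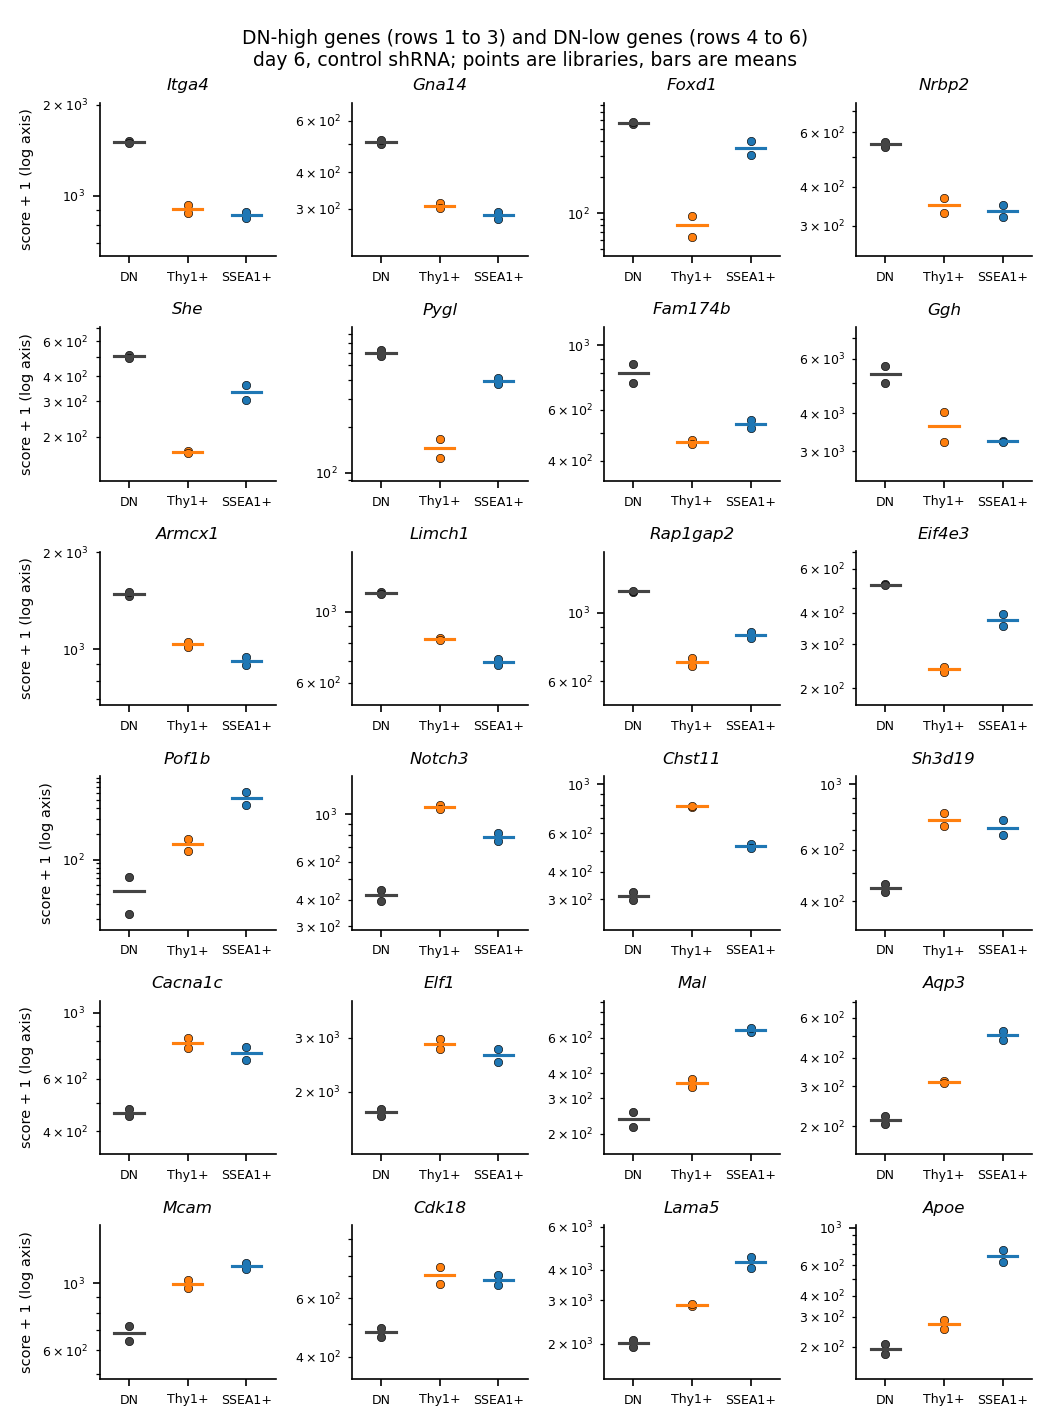
Scores + 1 on a log axis in DN, Thy1+ and SSEA1+ cells of day 6, control shRNA, points for libraries and bars for means, for the 12 named DN-high genes (rows 1 to 3) and the 12 named DN-low genes (rows 4 to 6). Both DN libraries lie above all 4 neighbour libraries in rows 1 to 3 (Itga4 at 1518 and 1498) and below them in rows 4 to 6 (Notch3 at 394 and 444).

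Wnt and Notch signals act in both fibroblasts and stem cells. Of 20 Wnt genes, 5 were called higher and 11 lower in DN than in Thy1+ cells (35.0% and 29.3% of all genes), and 9 higher and 4 lower than in SSEA1+ cells (21.6% and 19.8%). Lgr4, a receptor that amplifies Wnt signals, was DN-high, at 1369 and 1336 in DN cells, against 1072 and 1011 in Thy1+ cells and 1010 and 928 in SSEA1+ cells. Lef1, a nuclear effector of the pathway, lay between, at 228 and 248 in DN cells, against 16 and 30 in Thy1+ cells and 559 and 548 in SSEA1+ cells.

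Of 11 Notch genes, 4 were called higher and 4 lower in DN than in Thy1+ cells, close to the 35.0% and 29.3% of all genes, and 1 higher and 4 lower than in SSEA1+ cells (21.6% and 19.8%). The ligand Jag2 was among the higher ones, at 1684 and 1684 in DN cells, against 316 and 322 in Thy1+ cells and 2994 and 2768 in SSEA1+ cells. The receptor Notch1 stood at 620 and 727 in DN cells, against 1248 and 1266 in Thy1+ cells and 924 and 817 in SSEA1+ cells, a difference from SSEA1+ cells that was not called (log2 -0.37, SE 0.17, limma adjusted p = 0.0787, or 0.0408 with the 6 libraries fitted alone and 0.0499 with control shRNA libraries only). Of 28 Hox genes, which keep a record of body position in fibroblasts, 13 were called lower and 2 higher in DN than in Thy1+ cells (29.3% and 35.0% of all genes), and 17 higher and none lower than in SSEA1+ cells (21.6% and 19.8%).

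Stress and lipid programs are read against the same shares, 35.0% higher and 29.3% lower than in Thy1+ cells and 21.6% higher and 19.8% lower than in SSEA1+ cells over all genes. Of 22 cholesterol synthesis genes, 10 were called higher and 6 lower in DN than in Thy1+ cells, and 1 higher and 7 lower than in SSEA1+ cells. Of 17 genes of the unfolded protein response, 6 were higher and 9 lower than in Thy1+ cells, and 5 higher and 1 lower than in SSEA1+ cells. Calls in both directions were present in either list. Of 12 heat shock genes, 3 were higher and 7 lower than in Thy1+ cells, and 3 higher and 1 lower than in SSEA1+ cells. Of 14 interferon genes, 1 was higher and 6 lower than in Thy1+ cells, and 5 higher and 2 lower than in SSEA1+ cells.

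The genes that stood furthest outside both neighbours, by at least 2-fold on each side, were 7 DN-high and 20 DN-low genes, and the following names were chosen after their values were seen. Sox10, the neural crest and Schwann cell factor, stood at 52 and 44 in DN cells, against 1 and 4 in Thy1+ cells and 1 and 2 in SSEA1+ cells (log2 3.95 and 4.32, SE 0.60 each, limma adjusted p = 2.15e-06 and 1.23e-06). Foxd3, another neural crest factor that pluripotent cells also use, stood at 17 and 24 in DN cells, against 1 and 2 in Thy1+ cells and 1 and 1 in SSEA1+ cells. Scn7a, a sodium channel of Schwann cells, stood at 444 and 364 in DN cells, against 26 and 22 in Thy1+ cells, and was listed at 0 in both SSEA1+ libraries. Its call against Thy1+ cells ended without DN replicate 1 or Thy1+ replicate 2 (adjusted p = 0.0551 and 0.0533).

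The other DN-high genes of this size are not known for a glial role. Hhex, a homeobox factor of endoderm and blood, stood at 170 and 138 in DN cells, against 81 and 56 in Thy1+ cells and 52 and 32 in SSEA1+ cells. Fndc1, a fibronectin-domain protein, stood at 58 and 76 in DN cells, against 26 and 38 in Thy1+ cells and 30 and 28 in SSEA1+ cells. Fgf5, a growth factor of the primed epiblast, had low scores of 10 and 23 in DN cells, against 5 and 5 in Thy1+ cells and 0 and 1 in SSEA1+ cells. Its call against Thy1+ cells ended without DN replicate 2 (limma adjusted p = 0.286) or either Thy1+ library (adjusted p = 0.0873 and 0.0876), with quantile normalization (adjusted p = 0.0957) and with the 6 libraries alone (adjusted p = 0.0586). The last of the 7 was a predicted gene with no name of its own.

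Among the 20 DN-low genes of this size were Cdh3, Efs and Aff3, beside Pof1b. Cdh3, the gene of P-cadherin, stood at 80 and 94 in DN cells, against 206 and 224 in Thy1+ cells and 210 and 199 in SSEA1+ cells. Efs, a Src-binding scaffold, stood at 66 and 62 in DN cells, against 191 and 216 in Thy1+ cells and 132 and 148 in SSEA1+ cells. Aff3, a nuclear elongation factor, stood at 31 and 38 in DN cells, against 83 and 77 in Thy1+ cells and 72 and 76 in SSEA1+ cells. In these 3 the DN libraries lay below all 4 neighbour libraries.

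Because Sox10, Foxd3 and Scn7a are Schwann cell genes, 16 known genes of that lineage were collected after these values were seen, and 12 were measured. Of the 12, 8 were called higher and 2 lower in DN than in Thy1+ cells (35.0% and 29.3% over all genes), and 6 higher and 2 lower than in SSEA1+ cells (21.6% and 19.8%). The 3 genes that prompted the list are among the higher ones in both counts. Of the other 9, 5 were called higher and 2 lower than in Thy1+ cells, and 3 higher and 2 lower than in SSEA1+ cells. Cdh19, a cadherin of Schwann cell precursors, stood at 836 and 624 in DN cells, against 110 and 0 in Thy1+ cells and 78 and 42 in SSEA1+ cells. It was called against Thy1+ cells, a call that ended without Thy1+ replicate 2 (log2 2.70 in place of 6.10, limma adjusted p = 0.222) or with the 6 libraries alone (adjusted p = 0.0633), and not called against SSEA1+ cells (adjusted p = 0.101, or 0.0137 with a pseudocount of 8 and 0.033 with control shRNA libraries only). Mbp, a protein of myelin, stood at 394 and 444 in DN cells, against 237 and 230 in Thy1+ cells and 327 and 358 in SSEA1+ cells. The call of Mbp against SSEA1+ cells ended without DN replicate 2 or any 1 SSEA1+ library (adjusted p = 0.0556 to 0.284), and with quantile normalization, the 6 libraries alone or control shRNA libraries only (adjusted p = 0.0521 to 0.0632).

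Other genes of the lineage, which more cell types share, followed the main programs. Erbb3, the neuregulin receptor, stood at 110 and 112 in DN cells, against 39 and 33 in Thy1+ cells and 286 and 275 in SSEA1+ cells. Ngfr, the p75 receptor, stood at 496 and 524 in DN cells, against 80 and 85 in Thy1+ cells and 874 and 916 in SSEA1+ cells. Both lay between rising, while Pmp22, a membrane protein of myelin and fibroblasts, lay between falling, at 115 and 129 in DN cells, against 760 and 685 in Thy1+ cells and 46 and 30 in SSEA1+ cells.

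Sox10, Foxd3, Cdh19 and Scn7a were picked from the 12 for their wide gap to both neighbours at day 6, so their day 6 sums are a description. The sums of all 12 at day 6 were 2904 and 2705 in DN cells, against 1817 and 1615 in Thy1+ cells and 1955 and 1935 in SSEA1+ cells. All sums of the 12 include these 4. At day 6 the rest of the list added nothing to the gap above either neighbour, so the sums of 12 are no separate evidence. At day 3 the 12 gave 2507 and 2619, against 1433 and 1459 in Thy1+ cells and 1067 and 993 in SSEA1+ cells. At day 9 they gave 3258 and 3302, against 2470 and 2282 in Thy1+ cells and 2408 and 2680 in SSEA1+ cells. With Ctcf shRNA at day 6 they gave 4512 and 5113, against 1656 and 1415 in Thy1+ cells and 1798 and 1629 in SSEA1+ cells. The summed scores of the 4 at day 3 were 1218 and 1284 in DN cells, against 152 and 136 in Thy1+ cells and 211 and 135 in SSEA1+ cells. Most of that DN sum was Cdh19, at 941 and 1018, which was called against neither neighbour at day 3 (limma adjusted p = 0.168 and 0.209). Scn7a was called there against SSEA1+ but not Thy1+ cells (adjusted p = 0.25), and Sox10 and Foxd3 were called above both. At day 6 they were 1349 and 1056 in DN cells, against 138 and 28 in Thy1+ cells and 80 and 45 in SSEA1+ cells. With Ctcf shRNA at day 6 they were 2502 and 3103 in DN cells, against 209 and 36 in Thy1+ cells and 107 and 105 in SSEA1+ cells. The gap was narrower at day 9, with 1567 and 1585 in DN cells, against 888 and 629 in Thy1+ cells and 747 and 893 in SSEA1+ cells. None of the 4 was called above both neighbours at day 9, and Foxd3 there stood at 40 and 30 in DN cells, against 9 and 10 in Thy1+ cells and 44 and 38 in SSEA1+ cells. Unsorted day 0 cells had sums of 1441 and 2561 and GFP+ cells of day 12 had 976 and 1431.

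Sox10 itself, in libraries the day 6 comparison did not use, was called higher in DN cells than in both neighbours at day 3 and with Ctcf shRNA. The differences from Thy1+ and SSEA1+ cells were log2 3.39 and 2.97 at day 3 (SE 0.60 each, limma adjusted p = 0.000111 and 0.000208). They were 4.72 and 5.38 with Ctcf shRNA (SE 0.60 each, adjusted p = 6.55e-07 and 1.35e-08). At day 9 they were 1.18 and 1.19 and not called (adjusted p = 0.0989 and 0.148). Which cells hold these transcripts, and whether their number or their content differs, was not tested.

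**Figure D5:**
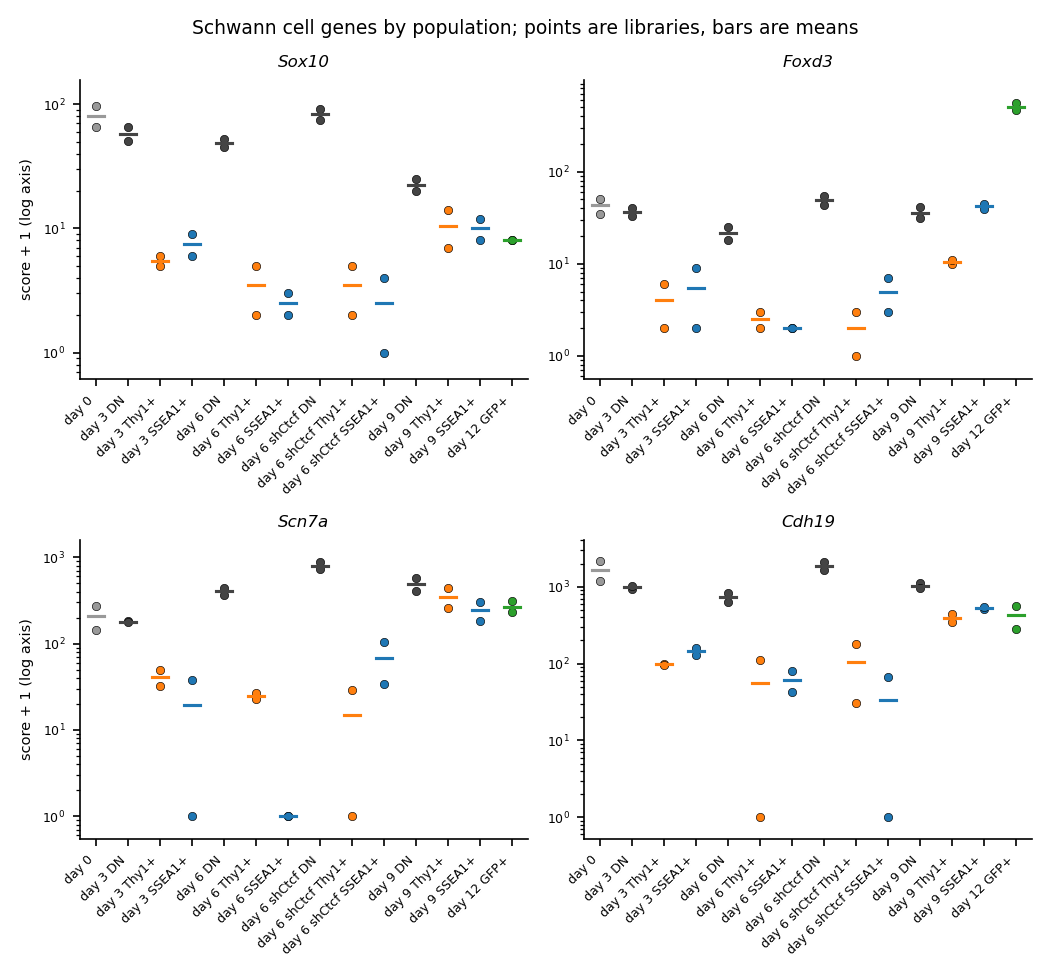
Scores + 1 on a log axis of Sox10, Foxd3, Scn7a and Cdh19 in day 0 cells, in DN, Thy1+ and SSEA1+ cells of days 3, 6 and 9 and of day 6 with Ctcf shRNA (shCtcf), and in day 12 GFP+ cells; points are libraries and bars are means. At day 6 Sox10 stands at 52 and 44 in DN cells, above every library of both neighbours, as it does at day 3 and with Ctcf shRNA.

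DN cells did not have the highest summed markers of macrophages, endothelium, neural cells or trophoblast. The summed scores of 9 measured macrophage markers were 2014 and 1966 in DN cells, against 3053 and 2587 in Thy1+ cells and 1697 and 1921 in SSEA1+ cells. Those of 5 endothelial markers were 905 and 907 in DN cells, against 926 and 905 in Thy1+ cells and 969 and 936 in SSEA1+ cells. Those of 6 neural markers were 8300 and 8190 in DN cells, against 12888 and 12093 in Thy1+ cells and 6139 and 6278 in SSEA1+ cells. The neural sum thus lay between its neighbours. Those of 6 trophoblast markers were 141 and 146 in DN cells, against 178 and 190 in Thy1+ cells and 638 and 754 in SSEA1+ cells. The labelled populations carried their own markers, although the fibroblast list includes Thy1, on which the cells were sorted. The 8 fibroblast markers summed to 16977 and 16511 in DN cells, against 117894 and 109355 in Thy1+ cells and 2057 and 2399 in SSEA1+ cells, and the 8 pluripotent markers to 497 and 514 in DN cells, against 59 and 51 in Thy1+ cells and 3159 and 2951 in SSEA1+ cells.

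Many genes between their neighbours at day 6 were also between in other DN cells. Of the 1963 between rising genes, 746 (38%) were again called between rising at day 3, 781 (39.8%) at day 9 and 1221 (62.2%) at day 6 with Ctcf shRNA. Over all genes the shares were 10.1%, 8.37% and 16.7%. Of the 2381 between falling genes, 1058 (44.4%), 1442 (60.6%) and 1520 (63.8%) were again called between falling, against 10.1%, 12.4% and 14.5% of all genes. At any p, 85.9%, 94.8% and 95.1% of the rising genes lay between in the same order, against 41.5%, 43% and 41.6% of all genes. For the falling genes these shares were 84.6%, 92.9% and 95.9%, against 31.2%, 32.1% and 34.6%. Nanog, for example, was between and called in both comparisons at day 9, with 668 and 720 in DN cells, against 187 and 180 in Thy1+ cells and 1607 and 1582 in SSEA1+ cells.

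Most DN-high and DN-low genes were not called outside both neighbours again elsewhere, although more of them stood there at any p. Of the 95 DN-high genes, 6 (6.32%) were again called above both neighbours at day 3, 10 (10.5%) at day 9 and 21 (22.1%) at day 6 with Ctcf shRNA, where all genes gave 0.335%, 0.424% and 0.639%. At any p, 20 (21.1%) stood above both neighbours at day 3, 60 (63.2%) at day 9 and 52 (54.7%) with Ctcf shRNA, against 10.3%, 11.9% and 8.39% of all genes. Of the 128 DN-low genes, 2 (1.56%), 6 (4.69%) and 20 (15.6%) were again called below both, where all genes gave 0.290%, 0.245% and 0.602%. At any p, 28 (21.9%), 57 (44.5%) and 73 (57%) stood below both, against 15.9%, 12.3% and 15% of all genes. At day 3 more of the DN-high genes were between rising, 26 of 95, and more of the DN-low genes between falling, 23 of 128, than in their own class (10.1% of all genes were in each between class at day 3). At day 9, 13 of the 128 DN-low genes were between rising (8.37% of all genes). These other sets share no library with the day 6 control cells. All calls use the same estimate of each gene's spread, however, so a gene with a small spread is more readily called in every set.

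In time, most DN-high genes were also above both ends of the process. In 69 of the 95, the mean of day 6 DN cells exceeded that of day 0 and of day 12 GFP+ cells, against 25.7% of all genes. In 77 of the 128 DN-low genes it was below both, against 18.1% of all genes. These 2 counts use the DN libraries that chose the genes and are given as a description.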

How the data were processed

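RNA of sorted cells was sequenced from total RNA. The submitters' processing notes name Trim Galore, FastQC and RSEM and the build GRCm38/mm10, without versions or roles. The deposited values are scores, that is, normalized tag counts that the authors rounded to whole numbers; how they were normalized is not given in the sources used here. The table held 14270 rows for 44 libraries of 22 groups; 819 rows of repeat types were not analysed here, and 13447 of the 13451 gene rows matched the annotation by identifier.

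Differences of log2(score + 1) were fitted with limma 3.58.1 (R 4.3.3), with 1 coefficient for each group over all 44 libraries (residual df 22) and a mean-variance trend. Genes that reached a score of 10 in no more than 1 library were to be left out, and all 13451 passed this minimum of 2 libraries. Adjusted p-values are Benjamini-Hochberg over all genes, called below 0.05. The script was tested on simulated data. Tables and figures used Python 3.11.15, pandas 2.3.3, numpy 2.4.6 and matplotlib 3.10.9.

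Named were 12 DN-high, 12 DN-low and 8 genes in each between class with the largest smaller step, a highest group mean of at least 493 and DN libraries outside both neighbours' ranges, leaving out predicted genes. The members given as examples of a list were chosen with their values known. The members and lists were chosen with earlier results of these data known, and the Schwann cell list after the values were seen. Alternatives were a pseudocount of 8, a score minimum of 100, no filter, median-of-ratios scaling, quantile normalization, the 6 libraries alone, control shRNA libraries alone, no trend, a replicate block, a 2-fold minimum and leaving out each library. Before quantile normalization the libraries already shared the same median and highest score over all rows.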

Additional observations from a re-analysis of the deposited data

Results flagged for a closer look

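Some genes stood on one side of a neighbour in every library at day 6 with control shRNA and on the other side in every library of another day or shRNA. The values below are log2 differences of DN cells from that neighbour, those elsewhere first and the day 6 control value in brackets; whether the differences themselves differ was not tested. Only genes with this pattern are listed, and a value is a sign shared by all libraries, not a call. Those without a call elsewhere were, at day 3, Fam174b, Hhex, Elf1, Mcam and Cdk18 against SSEA1+ cells and Fam174b and Tbx3 against Thy1+ cells. At day 9 they were Pof1b, Fndc1 and Ctsd against Thy1+ cells and Cacna1c, Aff3, Egr1 and Eno1 against SSEA1+ cells. With Ctcf shRNA, Pof1b against Thy1+ cells was not called either. Krt17 was not called against Thy1+ cells at day 6.

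The following DN-high genes stood below SSEA1+ cells at day 3. There Itga4 gave -1.20 (0.80), Foxd1 -1.28 (0.70), Nrbp2 -1.28 (0.72), She -0.53 (0.60), Pygl -0.93 (0.60), Fam174b -0.09 (0.58), Ggh -0.52 (0.73), Limch1 -0.19 (0.72), Rap1gap2 -0.36 (0.47), Eif4e3 -1.22 (0.46), Hhex -0.53 (1.88) and Pfkp -0.56 (0.27). Other DN-high genes were called above SSEA1+ cells at day 3 too, among them Sox10 at 2.97, Foxd3 at 3.10 and Fndc1 at 1.71. Sox2 gave -0.64 (0.19) and Hk2 -0.20 (0.07), neither called at day 6. With Ctcf shRNA at day 6, Foxd1 gave -0.82, Pygl -1.17, Rap1gap2 -0.39, Eif4e3 -0.37, Pfkp -0.37, Sox2 -0.46 and Hk2 -0.40 against SSEA1+ cells. At day 9, Eno1 gave -0.13 (0.20) and Mbp -0.45 (0.29) against SSEA1+ cells, and Fndc1 gave -0.23 (1.05) against Thy1+ cells. At day 3, Fam174b gave -0.15 (0.78) and Mbp -0.43 (0.84) against Thy1+ cells.

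The following genes low in DN cells at day 6 stood above SSEA1+ cells at day 3. There Pof1b gave 3.75 (-3.77), Chst11 1.54 (-0.75), Elf1 0.20 (-0.62), Mcam 0.22 (-0.74), Cdk18 0.21 (-0.53), Lama5 1.01 (-1.09), Cdh3 0.53 (-1.23), Efs 1.49 (-1.12), Aff3 1.11 (-1.09), Krt7 1.89 (-0.76) and Sfn 1.20 (-2.10). Cacna1c at -0.63 and Apoe at -0.59 were still called below SSEA1+ cells. Of the genes that were not DN-low, Ngfr gave 0.65 (-0.81), Cldn4 0.38 (-2.38) and Notch1 0.44 (-0.37). With Ctcf shRNA, Chst11 gave 1.64 and Efs 0.44 against SSEA1+ cells. At day 9, Cacna1c gave 0.20 (-0.66), Aff3 0.36 and Egr1 0.21 (-0.44).

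Other genes stood below Thy1+ cells at day 6 and above them at day 9. There Pof1b gave 1.41 (-1.97), Mal 1.01 (-0.59), Aqp3 0.92 (-0.56), Lama5 0.59 (-0.52), Krt17 2.07 (-0.33), Krt7 1.35 (-1.92), Sfn 1.59 (-0.70) and Ctsd, which is lysosomal, 0.04 (-0.42). At day 3, Lama5 gave 0.53, Egr1 0.40 (-0.72) and Tbx3 0.19 (-1.18), and with Ctcf shRNA Pof1b gave 1.38 and Mcam 0.31 (-0.54).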

How the results depend on the processing

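None of the 276 differences of named genes changed sign in an alternative while called there or in the main fit. Changes of sign in differences called in neither fit were not counted. Of 4094 recomputed values, 3853 stayed on the same side of the threshold and 10 gained a call. The other 231 lost the call, 81 of them with the 2-fold minimum and others on leaving out 1 library or under other settings. The fit with no filter is not counted, since every gene passed the filter and the fit was the same. With the 2-fold minimum, DN cells were higher for 1389 and lower for 1705 genes against Thy1+ cells, and higher for 1326 and lower for 465 against SSEA1+ cells. That minimum left 215 between rising, 1002 between falling, 7 DN-high and 20 DN-low genes, 191 above and 137 below the midpoint. It left 3 DN-high genes again DN-high at day 3, 0 at day 9 and 4 with Ctcf shRNA, and 0, 0 and 1 DN-low genes again DN-low. Median-of-ratios scaling moved the median of all genes by -0.09 against Thy1+ and 0.05 against SSEA1+ cells and left 1 DN-low gene again DN-low at day 3; quantile normalization gave 12 at day 9 and 36 with Ctcf shRNA. Leaving out 1 library gave 1701 to 2643 genes lower than in SSEA1+ cells, 1179 to 1824 between rising, 58 to 84 DN-high, 70 to 103 DN-low, 1052 to 1763 above and 450 to 836 below the midpoint. Each such fit assumes that the lone library left in a group varies like the other groups. The cause of these shifts was not tested.

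Across genes, deviations of replicate 1 from the group means correlated at 0.0151 between DN and Thy1+ cells and 0.058 between DN and SSEA1+ cells. Between Thy1+ and SSEA1+ cells they correlated at 0.00665. Such low values do not tell whether same-numbered libraries shared a culture or a day, because noise of single libraries can hide it. With the replicate number as a block (replicate block) the counts were 4813 higher and 4007 lower than in Thy1+ cells, 3007 higher and 2846 lower than in SSEA1+ cells, 2103 between rising, 2454 between falling, 102 DN-high and 141 DN-low. Depth is unknown, so low scores carry no counting interval.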
